A study of Homo sapiens with 6 samples.

Results

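The SR proteins are a family of splicing factors that bind RNA through an RNA recognition motif and contact the splicing machinery through a domain rich in arginine and serine. The genes described here were given by name as SRSF1, SRSF2, SRSF3, SRSF4, SRSF5, SRSF6, SRSF7, SRSF9, SRSF10 and SRSF11. They are 10 of the 62700 genes in the deposited gene table, and their 106 transcripts are among the 251955 in the deposited transcript table. SR proteins promote the inclusion of exons, and several also act in RNA export, stability and translation. Most SR genes can splice their own RNA into non-coding forms. In many of these, a poison exon or a retained intron brings in an early stop codon. Nonsense-mediated decay, the surveillance pathway for such transcripts, can degrade the product. Other decay forms keep a stop that coding transcripts use, with exon junctions after it. The ratio of these forms to the coding form is a known way in which SR proteins limit their own level.

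RNA was measured in TCam-2, an established human testicular cancer cell line of seminoma type. Non-transduced cells (WT) and cells transduced with FLAG-tagged GFP (GFP) served as the negative controls for cells transduced with FLAG-tagged RBMXL3 (RBMXL3), with 2 libraries per group. RBMXL3 belongs to the RBMX family of RNA-binding proteins, and the study asked which genes change in expression or splicing when it is overexpressed. All 3 groups are the same line grown in the same medium, and the labels do not say whether the libraries of a group came from separate cultures or clones, so p-values measure only the spread between these libraries.

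RBMXL3 itself had 0 reads in each control library, which allows up to 3 reads, and 84 and 68 reads in the RBMXL3 libraries. Total reads ranged from 17685680 to 29318007 per library and were lowest in the RBMXL3 group. All 12 seminoma markers, among them POU5F1 and NANOG, reached at least 1 TPM (transcript abundance per length, scaled to 1 common total in each library) in every library. Of 11 markers of other cell types, 6 stayed under 1 TPM in every library, of which AFP and CD3E were listed at 0 throughout. The summed level of those 11 markers was 25.8 to 27.7 TPM in RBMXL3, above the 13.6 to 18.0 of WT and the 17.1 to 18.1 of GFP, and its part in the results was not tested. In bulk RNA, fewer cells with a transcript and less of it per cell cannot be told apart.

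Of the 106 SR transcripts, GENCODE 29 (GRCh38) classes 39 as coding and 67 as non-coding. The non-coding ones are 21 nonsense-mediated decay transcripts, 28 retained introns and 18 processed transcripts, which carry no annotated reading frame. In 8 of the 21 decay transcripts the mean level was at least 5 TPM. The stretches below are the ones by which 5 of those 8 leave the coding sequence. Each is the end of the annotated reading frame, from the first base past those that coding transcripts of the gene also use as coding, up to the stop codon, which is in capitals. All are GENCODE 29 transcript sequence written 5′ to 3′. They are shown because they hold the early stops that define these poison forms, and the SRSF4 stretch, from a transcript whose level was not analysed here, is shown for its likeness to that of SRSF6.
SRSF3-203: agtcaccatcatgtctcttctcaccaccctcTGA
SRSF4-204: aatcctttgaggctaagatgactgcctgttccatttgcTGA
SRSF6-202: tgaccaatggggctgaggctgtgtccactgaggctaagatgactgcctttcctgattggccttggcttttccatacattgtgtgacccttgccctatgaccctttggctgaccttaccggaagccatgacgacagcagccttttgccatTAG
SRSF7-204: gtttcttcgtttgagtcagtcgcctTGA
SRSF7-208: gtatttatttTAA
SRSF10-215: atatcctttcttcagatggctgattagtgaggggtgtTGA

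The SRSF3-203 stretch lies at chr6:36599821-36599854 on the plus strand, in an exon of 456 bases, and 3 exon junctions follow its stop. In SRSF6-202 the stretch spans chr20:43459153-43459304 on the plus strand, with 4 junctions after the stop. The SRSF7-204 stretch lies at chr2:38749319-38749346 and that of SRSF7-208 at chr2:38749516-38749528, both on the minus strand, so these transcripts stop at different places upstream of the normal end. The SRSF10-215 stretch is at chr1:23978673-23978712 and the SRSF4-204 stretch at chr1:29160018-29160058, both on the minus strand. Over 102 pairs of stretches from different SR genes, the longest shared run was the 20 bases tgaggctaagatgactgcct, in SRSF4 and SRSF6, and the next longest was 8 bases. The other 3 of the 8 decay transcripts print no such stretch. In SRSF1-206 the stretch is 4 bases with the stop included, and SRSF1-207 and SRSF2-208 end at a stop that coding transcripts also use, with 2 exon junctions after it in each.

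At the level of whole genes, measured in the gene table as reads normalised by the authors, 7 of the 10 SR genes passed the test against GFP and 1 against WT. SRSF1, SRSF5, SRSF6, SRSF10 and SRSF11 were higher than in GFP, and SRSF7 and SRSF9 were lower. SRSF1 alone was also called against WT. The test was limma on log2(value + 1) with Benjamini-Hochberg adjustment over 14292 genes, called at an adjusted p under 0.05. Over all genes 20.9% were called against GFP (10.5% higher and 10.4% lower), 29.9% against WT (14.6% higher) and 13.7% against both in the same direction. The count against WT was thus below the share of all genes, and that against GFP above it. The comparisons share the RBMXL3 libraries and are not independent.

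SRSF1 (ENSG00000136450.13, chr17:58003360-58007346) is the founding member of the family and a regulator of splice site choice. Its normalised reads were 1593 and 2147 in WT, 1443 and 1935 in GFP, against 3094 and 3160 in RBMXL3. Both RBMXL3 libraries lay above all 4 controls. The log2 change was 0.89 ± 0.15 (SE) against GFP and 0.75 ± 0.15 against WT, with limma adjusted p of 0.00205 and 0.0031. Without WT library 1, the change against WT was 0.54 with an adjusted p of 0.0683.

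SRSF11 (ENSG00000116754.14, chr1:70205682-70253052), an SR-related protein, had 3293 and 3412 normalised reads in WT, 2984 and 2882 in GFP, against 3915 and 3859 in RBMXL3. SRSF6 (ENSG00000124193.16, chr20:43457928-43464247) had 4028 and 4446 in WT, 3534 and 4084 in GFP, against 5373 and 4706 in RBMXL3. SRSF5 (ENSG00000100650.16, chr14:69726900-69772005) had 4294 and 3938 in WT, 3556 and 3616 in GFP, against 4717 and 4568 in RBMXL3. In each of these genes the RBMXL3 libraries were above all controls, and GFP had the lowest mean. Against GFP the log2 changes were 0.40 ± 0.09, 0.40 ± 0.11 and 0.37 ± 0.09 (SE) for SRSF11, SRSF6 and SRSF5, with limma adjusted p of 0.00973, 0.0224 and 0.0164. Against WT they were 0.21, 0.25 and 0.17, with limma adjusted p of 0.0975, 0.107 and 0.18.

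SRSF10 (ENSG00000188529.15, chr1:23964804-23980927), which acts as a splicing repressor when dephosphorylated, had 5756 and 5717 normalised reads in WT, 5067 and 5737 in GFP, against 6641 and 6666 in RBMXL3. Its RBMXL3 libraries were also above every control. The log2 change was 0.30 ± 0.10 (SE) against GFP and 0.21 ± 0.10 against WT, with limma adjusted p of 0.0445 and 0.118.

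SRSF7 (ENSG00000115875.19, chr2:38743599-38751494), which also serves in RNA export, had 6324 and 6989 in WT, 8287 and 7427 in GFP, against 6432 and 6052 in RBMXL3. SRSF9 (ENSG00000111786.10, chr12:120461668-120469793) had 4646 and 4979 in WT, 5840 and 5572 in GFP, against 4480 and 4571 in RBMXL3. For both genes GFP was the high group. SRSF7 in RBMXL3 overlapped WT, and SRSF9 in RBMXL3 lay just below it. The log2 changes against GFP were -0.33 ± 0.10 and -0.33 ± 0.09 (SE), with limma adjusted p of 0.0385 and 0.0258, and against WT both were -0.09, with limma adjusted p of 0.529 and 0.51.

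SRSF2, SRSF3 and SRSF4 were called in neither comparison. SRSF2 (ENSG00000161547.17, chr17:76734115-76737374), a regulator of exon inclusion, had 10136 and 9953 normalised reads in WT, 9085 and 10296 in GFP, against 10273 and 10795 in RBMXL3. SRSF3 (ENSG00000112081.17, chr6:36594353-36605600), the smallest family member, had 8092 and 8957 in WT, 7404 and 10320 in GFP, against 10935 and 10230 in RBMXL3. SRSF4 (ENSG00000116350.18, chr1:29147743-29181987) had 2581 and 2149 in WT, 2346 and 2267 in GFP, against 2056 and 2130 in RBMXL3. In RBMXL3 SRSF2 and SRSF3 overlapped GFP and lay above both WT libraries, and both SRSF4 values in RBMXL3 were below every control. Their log2 changes were 0.12, 0.27 and -0.14 against GFP and 0.07, 0.31 and -0.17 against WT, with limma adjusted p between 0.104 and 0.644. SRSF3 was called against WT in 2 of 9 other settings, quantile normalization and the fit of only WT and RBMXL3. It was also called against WT without GFP library 1 (0.00534) or GFP library 2 (0.00506), and against GFP without GFP library 2 (0.00153).

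**Figure D1:**
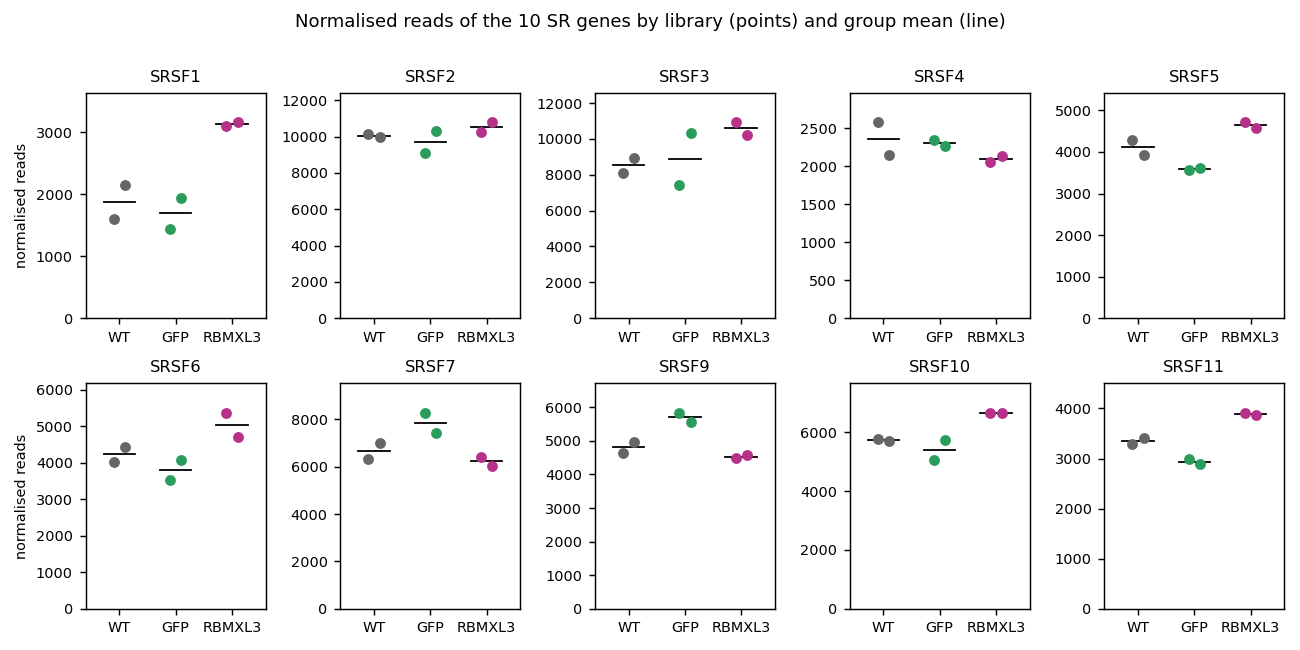
Normalised reads (vertical axis, from 0) of each SR gene in the WT, GFP and RBMXL3 libraries, with a point per library and a line at the mean of 2 libraries. The RBMXL3 points of SRSF1, at 3094 and 3160, stand above all 4 controls, and for SRSF7 and SRSF9 the GFP points are the highest.

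Counted without the test, 5 of the 10 SR genes had both RBMXL3 libraries above all controls and 2 had both below, where 22.5% and 23.6% of all tested genes did. The median log2 change of the 10 genes was 0.29 against GFP and 0.19 against WT, beside 0.00087 and -0.014 over all genes. Between the controls, 0 of 10 SR genes were called by limma, where 3.67% of all genes were. For this pair 2 of 10 had an unadjusted p under 0.05, where 22.3% of all genes did, and edgeR and DESeq2 each called 0. With edgeR or DESeq2 on the recovered reads, the same 7 genes were called against GFP and SRSF1 against WT. With quantile normalisation 6 SR genes were called against WT, all higher, and 5 against GFP, where SRSF7 and SRSF9 were not called. Of 9 other settings, 4 called SRSF7 against GFP, and 5 called SRSF9 and SRSF10. SRSF1 and SRSF6 were called against GFP in 7 of them, and SRSF5 and SRSF11 in 8. Without RBMXL3 library 1, and likewise without RBMXL3 library 2, SRSF1 was the 1 gene called against GFP, in fits that assume the lone library varies like the other groups. Without WT library 1, WT library 2 or GFP library 1, 5 were called, and without GFP library 2, 8 were. Against WT, 5 were called without either GFP library and 0 without WT library 1.

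The deposited TPM, summed over the transcripts of a gene, gave another account for several members. SRSF5 was the 1 SR gene called, against both controls, where 6.93% of genes were called against GFP and 11.5% against WT. Its summed TPM was 211 and 215 in WT, 219 and 189 in GFP, against 311 and 319 in RBMXL3, with the RBMXL3 libraries above all controls. The log2(TPM + 1) change was 0.63 ± 0.10 (SE) against GFP and 0.56 ± 0.10 against WT, with limma adjusted p of 0.0245 and 0.0214. SRSF1, the strongest member in the gene table, had 382 and 378 TPM in WT, 362 and 317 in GFP, against 317 and 333 in RBMXL3. Its RBMXL3 libraries overlapped GFP and lay below WT, and the log2 changes of -0.06 and -0.23 were not called (limma adjusted p of 0.715 and 0.167). For SRSF11 the changes were -0.01 against GFP and -0.29 against WT on this scale, also not called.

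**Figure D2:**
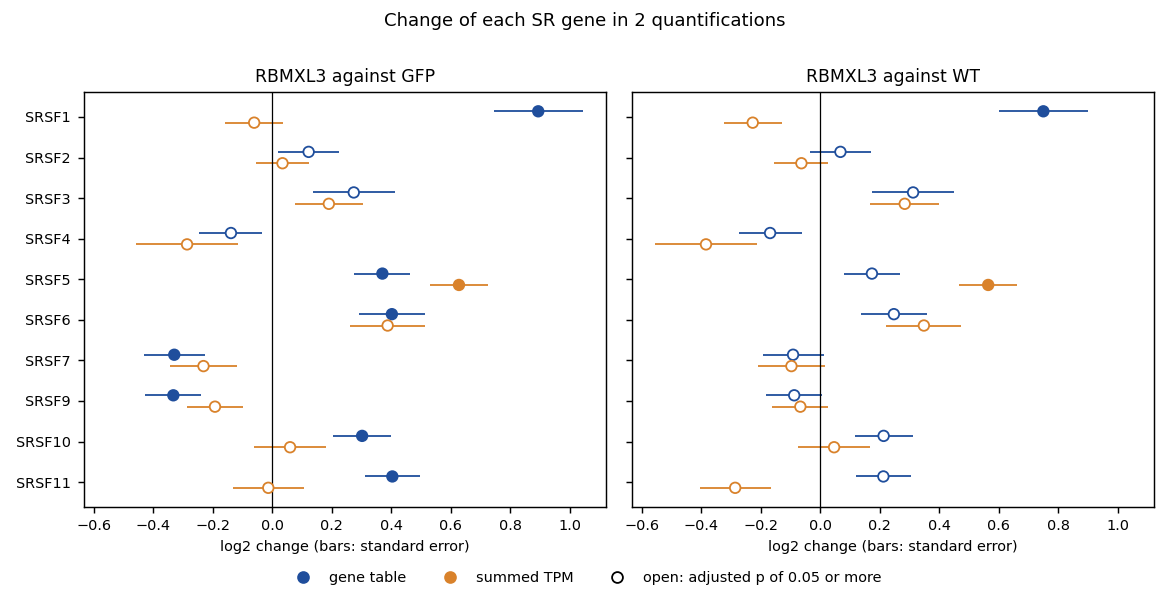
Log2 change of each SR gene against GFP (left) and WT (right), with standard errors, from the gene table (blue) and from summed TPM (orange), where filled points have an adjusted p under 0.05. The 2 quantifications lie far apart for SRSF1, at 0.89 and -0.06 against GFP.

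The reads of a gene were set against the reads that its TPM and transcript lengths imply, with the median gene at 1. For SRSF1 this ratio was 0.117 and 0.17 in WT, 0.12 and 0.155 in GFP, against 0.285 and 0.284 in RBMXL3. SRSF1 thus had few reads in the gene table for its TPM in every library, at percentile 2.32 of 8960 genes, and the shortfall was smallest in RBMXL3. In SRSF11 the ratio was 1.04 and 1.03 in WT, 0.915 and 1.06 in GFP, against 1.28 and 1.35 in RBMXL3. The other 8 members ranged from 0.693 to 1.03. In GENCODE 29, 56.6% of the SRSF1 exon bases also belong to AC015813.2, a protein-coding gene on the same strand, which had 0 reads in every library of the gene table and 0.432 to 3.07 TPM. Of the genes with both measures, 52 share at least 50% of their exon bases with a gene on the same strand, a set chosen after the SRSF1 values were seen. Their median ratio was 0.186 in RBMXL3, beside 0.167 in WT and 0.171 in GFP. Of them 9.62% were called higher against GFP, and of the 7550 genes that share no exon bases on the same strand 10.5% were. Against WT these shares were 9.62% and 13.7%. Called lower were 5.77% and 13.3% against GFP, and 3.85% and 18.3% against WT. The median log2 changes of the 52 and the 7550 genes were 0.046 and -0.032 against GFP, and 0.104 and -0.050 against WT. The part of this overlap in the SRSF1 result was not tested, and how the authors counted reads in shared exons is not given in the sources used here. SRSF2 and SRSF9 share 36.7% and 46.2% of their exon bases with MFSD11 and GATC on the opposite strand, and reads from such partners cannot be told apart unless counting used strand, which is not given either.

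**Figure D3:**
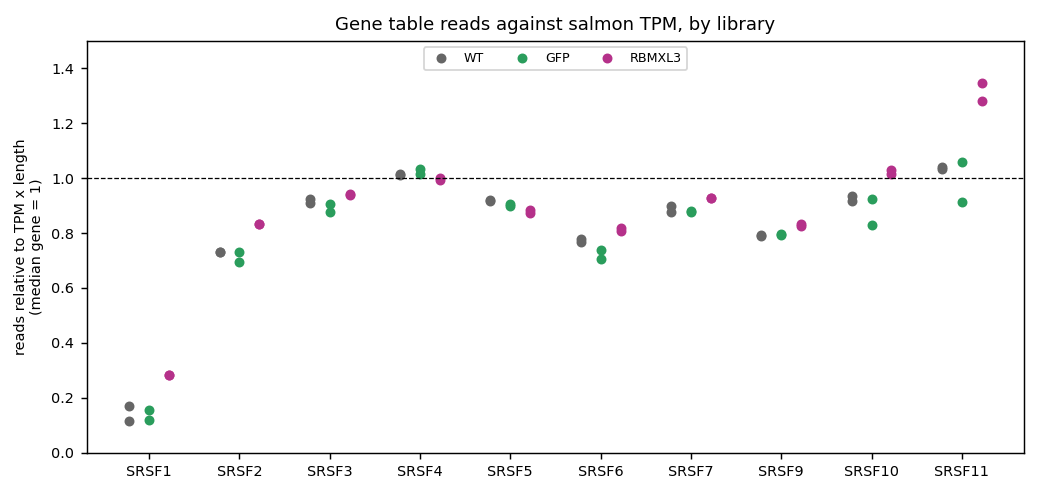
Reads in the gene table relative to those implied by TPM and transcript length (vertical axis, ratio, median gene at 1, dashed line) for each SR gene, with a point per library. SRSF1 lies between 0.117 and 0.285, and the other genes between 0.693 and 1.35.

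Per length, in WT, SRSF3 and SRSF2 had the highest levels, at 472 ± 67 and 467 ± 10 TPM (SD, n = 2), and their libraries overlapped. SRSF1 followed at 380 ± 2.3 TPM. SRSF7, at 342 ± 25 TPM, and SRSF9, at 333 ± 23 TPM, overlapped each other. SRSF5 at 213 ± 2.6 TPM and SRSF10 at 194 ± 5.5 TPM came next and were apart. SRSF11, SRSF6 and SRSF4 were lowest, at 103 ± 9.1, 92.4 ± 15 and 79.0 ± 7.1 TPM, and each overlapped its neighbour.

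For several members, the share of the gene's TPM in non-coding transcripts was above that of all annotated protein-coding genes pooled, in every group. The pooled value was 9.87% to 11.6% per library, a total weighted by abundance and not the share of a typical gene. In SRSF1 the share was 43.3% and 44.6% in WT, 47.2% and 39.9% in GFP, against 34.8% and 35.3% in RBMXL3. In SRSF3 it ranged from 31.3% to 46.3% over the 6 libraries, in SRSF11 from 27.8% to 42.9% and in SRSF10 from 21.2% to 30.7%. In SRSF6 it was 11.9% and 24.8% in WT, 33.3% and 29.9% in GFP, against 26.1% and 28.8% in RBMXL3. In SRSF6 the RBMXL3 libraries lay above both WT and below both GFP libraries. SRSF3, SRSF10 and SRSF11 overlapped between RBMXL3 and each control group, as did SRSF2, at 7.52% to 16.6%.

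Both RBMXL3 libraries stood outside all controls in the share of 5 SR genes, lower in 2 (SRSF1 and SRSF4) and higher in 3 (SRSF5, SRSF7 and SRSF9), where 13.9% and 13.5% of the 5580 genes tested were. SRSF4 had a non-coding share of 25% and 30.4% in WT, 45.1% and 15.3% in GFP, against 0.364% and 0.349% in RBMXL3. In SRSF5 the share was 11.7% and 8.78% in WT, 7.14% and 17.5% in GFP, against 20.3% and 21.2% in RBMXL3. In SRSF7 it was 9.85% and 11.5% in WT, 6.96% and 9.4% in GFP, and 17.1% in both RBMXL3 libraries. The 2 GFP libraries differed widely in SRSF4 and SRSF5, while the RBMXL3 pairs were close. SRSF9 had 2.2% and 2.16% in WT, 1.56% and 2.36% in GFP, against 3.18% and 3.13% in RBMXL3, a small share throughout.

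**Figure D4:**
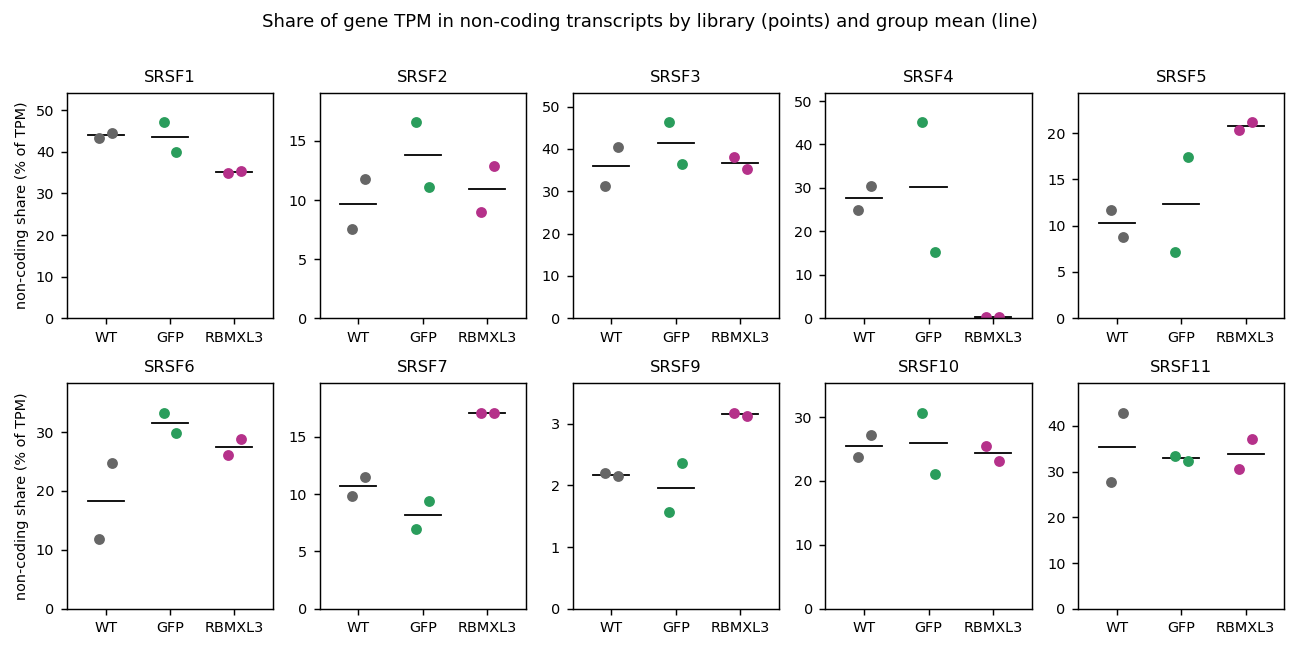
Share of each SR gene's TPM in non-coding transcripts (vertical axis, percent, from 0) by library (points) and group mean (line). SRSF4 lies between 15.3% and 45.1% in the controls and at most at 0.364% in RBMXL3, and SRSF7 stands at 17.1% in both RBMXL3 libraries.

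Tested as log2 of non-coding over coding TPM, each plus 1, SRSF4 was the 1 SR gene called, and only against GFP, where 0.95% of genes were called (0.735% lower). Its non-coding TPM was 0.211 and 0.218 in the RBMXL3 libraries, so it passed the filter of 1 TPM per class through the controls only. The size of its change thus depends on the added 1. Its log2 ratio differed by -4.34 ± 0.66 (SE), with a limma adjusted p of 0.0498. Against WT it differed by -4.30 ± 0.66, with a limma adjusted p of 0.0615, and 0 SR genes were called where 0.663% of genes were. In this comparison 2 of the 10 had an unadjusted p under 0.05, where 13% of all genes did, and no other tool was run on the ratio. Against both controls limma called 0 SR genes and 0.573% of all genes. The SRSF4 call against GFP held in 1 of 6 fits that left out a library, the one without GFP library 2 (adjusted p of 0.018), and in the other fits the adjusted p was between 0.0966 and 0.277. Against WT, SRSF4 was called without GFP library 1 (0.0181), without GFP library 2 (0.0201) and in the fit of only WT and RBMXL3. For SRSF7 the log2 ratio differed by 1.20 ± 0.31 and 0.78 ± 0.31 (SE) against GFP and WT, for SRSF5 by 0.99 ± 0.50 and 1.17 ± 0.50, for SRSF9 by 0.67 ± 0.31 and 0.50 ± 0.31, and for SRSF1 by -0.51 ± 0.29 and -0.53 ± 0.29, none of them called (limma adjusted p from 0.15 to 0.565). Between the controls limma called 0 SR genes and 0% of all genes, and 0 SR genes had an unadjusted p under 0.05.

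Of the 106 SR transcripts, 76 had at least 1 TPM in at least 2 libraries and were tested as log2(TPM + 1). Against GFP 3 of 76 were called, 1 higher and 2 lower, where 1.25% of 44693 transcripts were (0.562% higher and 0.685% lower). Against WT 1 of 76 was called, lower, where 1.53% were (0.92% lower). The 1 transcript called against both, SRSF11-216, compares with 0.929% of all transcripts. By limma, 33 of 76 had an unadjusted p under 0.05 against GFP and 21 of 76 against WT, beside 19.1% and 18.4% of all transcripts. Between the controls limma called 0 of 76 and 0% of all, with 8 of 76 at an unadjusted p under 0.05, beside 7.97% of all, and no other tool was run on transcripts. Both RBMXL3 libraries lay above all controls in 25 of the 76 and below in 15, where 21.4% and 11.1% of all transcripts did. Among those 76, 16 of 44 non-coding and 9 of 32 coding transcripts were above, and 10 non-coding and 5 coding ones below.

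SRSF11-216, a processed transcript of 3 exons and 784 bases, stood at 17.3 and 24.2 TPM in WT and at 17.9 and 15.1 TPM in GFP. In RBMXL3 it was listed at 0 in library 1 and at 0.944 TPM in library 2. It held a mean of 20.0% of the SRSF11 TPM in WT, 19.4% in GFP and 0.573% in RBMXL3. The log2(TPM + 1) change was -3.65 ± 0.37 (SE) against GFP and -3.95 ± 0.37 against WT, with limma adjusted p of 0.031 and 0.0242. SRSF11-216 passed the filter of 1 TPM through the controls only, where it was high, and the size of its change depends on the added 1. In each of the 6 fits that left out a library it was not called in either comparison, with adjusted p between 0.0551 and 0.164, and as a share of the gene it had adjusted p of 0.0585 and 0.0602. The mean non-coding share of SRSF11 was 33.9% in RBMXL3, beside 35.3% in WT and 32.9% in GFP, so SRSF11-216 was the larger part of it in the controls and a small part in RBMXL3.

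SRSF4-205, a retained-intron transcript of 516 bases, was the main non-coding form of SRSF4. It stood at 20.8 and 21.9 TPM in WT and at 39.3 and 9.24 TPM in GFP, and was listed at 0 in both RBMXL3 libraries. SRSF4-205 also passed the filter through the controls only, so the size of its change depends on the added 1. The limma adjusted p was 0.0614 against GFP and 0.0542 against WT, so it was not called. Without GFP library 2, it was called against both, with adjusted p of 0.0232 and 0.0192, and without GFP library 1 against WT (0.0208). Of 7 settings that kept all libraries of the compared groups, 2 called it against GFP and 4 against WT. SRSF4-201, the main coding form, had 61.6 and 51.1 TPM in WT, 47.9 and 52.0 in GFP, against 56.1 and 60.7 in RBMXL3, which overlapped WT and lay above GFP.

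SRSF2-210 and SRSF10-212, named because they were called against GFP and so chosen after their values were seen, differed from it in opposite directions. SRSF2-210, a retained intron, had 7.23 and 6.73 TPM in WT, 12.6 and 11.5 in GFP, against 2.75 and 3.92 in RBMXL3. SRSF10-212, a processed transcript, had 4.6 and 5.7 TPM in WT, 1.48 and 1.2 in GFP, against 18.9 and 12.2 in RBMXL3. RBMXL3 was below all controls for the former and above them for the latter. The changes against GFP were -1.60 ± 0.20 and 2.79 ± 0.26 (SE), with limma adjusted p of 0.0433 and 0.0264, and both calls were lost in every fit that left out 1 library.

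Among the decay forms, limma called 0 of the 8 with at least 5 TPM against either control, with adjusted p between 0.115 and 0.995. At an unadjusted p under 0.05 there were 2 of 8 against GFP and 2 of 8 against WT, where 19.1% and 18.4% of all transcripts were. SRSF1-206 was called lower against WT in 3 other fits, that of only WT and RBMXL3 (adjusted p of 0.0487) and those without GFP library 1 (0.05) or GFP library 2 (0.0492), and the other 7 in none of 13. SRSF1-206 was by far the most abundant, at 152 and 146 TPM in WT, 148 and 112 in GFP, against 93.1 and 94.9 in RBMXL3. Its RBMXL3 libraries were below all controls, and the changes of -0.45 ± 0.15 and -0.66 ± 0.15 (SE) had limma adjusted p of 0.208 and 0.115. SRSF1-205, the main coding form, had 190 and 174 TPM in WT, 129 and 165 in GFP, against 168 and 181 in RBMXL3, which overlapped WT and lay above GFP. SRSF1-206 held 39.3% of the gene's TPM in WT, 38.1% in GFP and 29% in RBMXL3. Among decay forms under 5 TPM, SRSF2-204 and SRSF3-204 are named here after their values were seen. At such low levels the size of their changes depends on the added 1. SRSF2-204 had 0.853 and 0 TPM in WT, 0 and 1.78 in GFP, against 8.04 and 13.0 in RBMXL3. Its changes of 2.75 ± 0.62 and 3.05 ± 0.62 (SE) against GFP and WT were not called (limma adjusted p of 0.122 and 0.0992). SRSF3-204 was below all controls, at 0.839 and 0.719 TPM in RBMXL3, and not called either (0.303 and 0.203).

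SRSF7-208, whose stretch gtatttatttTAA is shown above, had 15.8 and 17.2 TPM in WT, 8.19 and 14.5 in GFP, against 27.4 and 22.3 in RBMXL3. SRSF6-202 had 9.75 and 25.4 in WT, 29 and 27.4 in GFP, against 32.0 and 32.2 in RBMXL3. Both were highest in RBMXL3, and for SRSF6-202 the gap to GFP was small beside the spread in WT. SRSF10-215 was lowest in RBMXL3, at 6.71 and 8.27 TPM against 10.8 and 9.3 in WT and 10.7 and 10.1 in GFP. SRSF3-203 had 18.0 and 10.9 TPM in WT, 14.2 and 16 in GFP, against 17.7 and 16.7 in RBMXL3, where it overlapped WT and lay above GFP. SRSF7-204, at 2.87 to 11.6 TPM over the 6 libraries, overlapped GFP in RBMXL3 and lay above WT, and so did SRSF2-208, at 8.98 to 35.4 TPM. SRSF1-207, at 5.7 to 12.6 TPM, overlapped WT in RBMXL3 and lay below GFP.

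**Figure D5:**
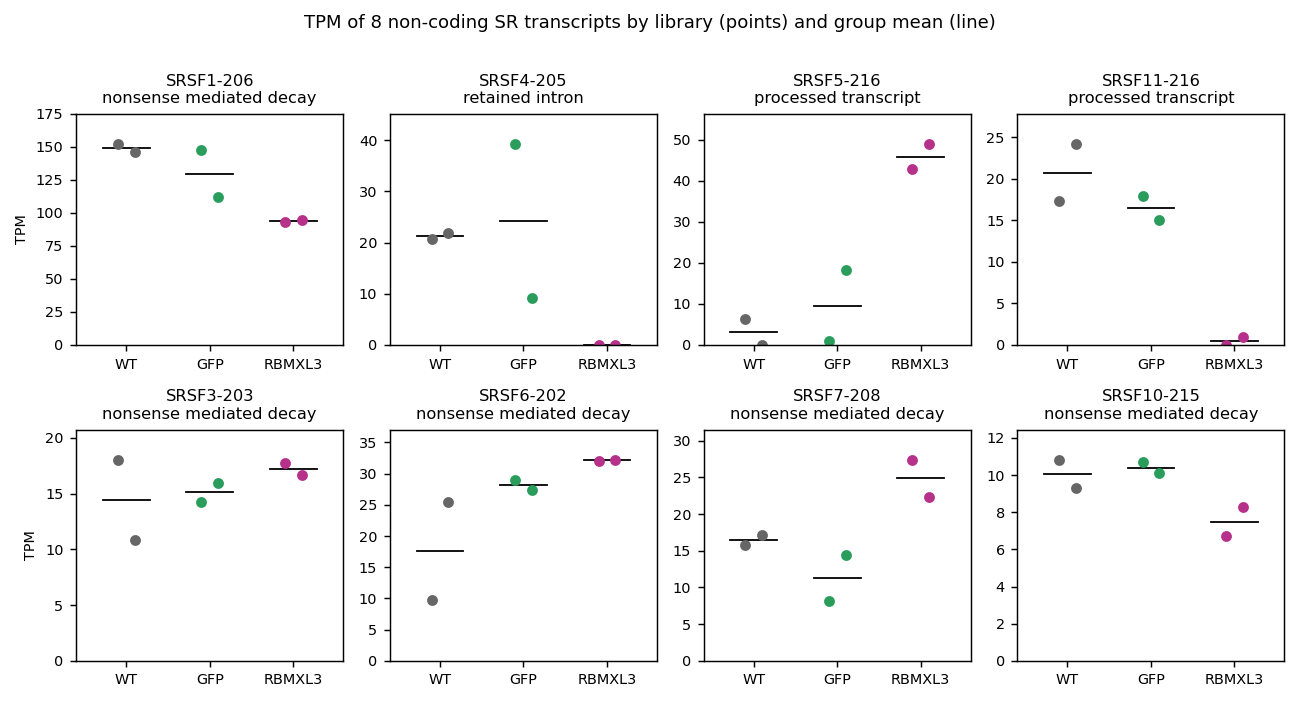
TPM (vertical axis, from 0) of 8 non-coding SR transcripts by library (points) with the group mean (line), each panel titled with its annotated class. SRSF4-205 is listed at 0 in both RBMXL3 libraries and SRSF11-216 is at most 0.944 TPM there, while the decay forms of the lower row differ less.

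SRSF5-216, a processed transcript and the main non-coding form of SRSF5, had 6.35 TPM and was listed at 0 in the WT libraries. It had 1.06 and 18.2 TPM in GFP and 42.9 and 49.0 in RBMXL3. RBMXL3 was above all controls, but with this spread the limma adjusted p was 0.332 and 0.219. The main coding form SRSF5-217 had 141 and 126 TPM in WT, 89.6 and 102 in GFP, against 133 and 131 in RBMXL3. All coding SRSF5 transcripts together reached 186 and 196 TPM in WT, 203 and 156 in GFP, against 248 and 251 in RBMXL3, so coding and non-coding TPM were both highest in RBMXL3.

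Of the main coding forms of the other genes, limma called none. SRSF3-208 had 235 to 262 TPM over the controls and 302 and 296 in RBMXL3. SRSF6-201 had 58.1 to 77.3 TPM over the controls and 90.8 and 79.5 in RBMXL3, and SRSF10-207 had 36.6 to 46.9 and then 54.1 and 55.8. Against GFP the log2(TPM + 1) differences of SRSF6-201 and SRSF10-207 were 0.47 ± 0.11 and 0.48 ± 0.10 (SE), with limma adjusted p of 0.132 and 0.114. All 3 were above all controls in RBMXL3, while SRSF11-203 was below them, at 34.1 and 28.7 TPM against 35.1 to 41.0. In RBMXL3, SRSF2-202 overlapped GFP and lay below WT, while SRSF7-202 and SRSF9-201 overlapped WT and lay below GFP. Of the main retained-intron forms, SRSF3-206, at 81.0 to 189 TPM over the 6 libraries, overlapped both control groups. SRSF9-202, at 2.91 to 4.35 TPM, overlapped GFP, and SRSF10-213, at 9.48 to 18.2 TPM, overlapped WT and lay above GFP.

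The genes that act on SR proteins or on their poison forms were read in 3 lists. SR protein kinases, a phosphatase and nuclear import receptors had 11 of 12 genes tested, of which 1 was called against GFP, lower, and 3 against WT, 1 higher and 2 lower. Other SR and SR-related proteins had 23 genes tested, with 2 higher and 1 lower against GFP, and 1 higher and 5 lower against WT. Nonsense-mediated decay factors had 15 tested, with 1 higher and 2 lower against GFP, and 4 called against WT, each lower. These counts read against the 20.9% and 29.9% called over all genes. The list medians were between -0.15 and 0.08 on the log2 scale.

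Over all genes, 13.7% were called against both controls in the same direction. Of the 15 decay factors tested, EIF4A3 and MAGOH were, and of the 23 other SR and SR-related proteins, U2AF1 and LUC7L2. EIF4A3 and MAGOH belong to the exon junction complex that marks junctions for decay. RBM8A, MAGOHB and CASC3, from the same list, were called against neither control. Their log2 changes were -0.04, -0.19 and 0.04 against GFP and -0.15, -0.22 and -0.01 against WT. EIF4A3 had 5889 and 6371 normalised reads in WT, 7962 and 6821 in GFP, against 4869 and 4712 in RBMXL3. MAGOH had 2086 and 2214 in WT, 2578 and 2306 in GFP, against 1504 and 1510 in RBMXL3. Both genes were below all controls in RBMXL3. EIF4A3 fell by 0.62 and 0.35 on the log2 scale against GFP and WT (limma adjusted p of 0.00212 and 0.0233), and MAGOH fell by 0.69 and 0.51 (0.00094 and 0.00277). U2AF1, the small subunit of the factor that binds the end of introns, fell by 0.68 and 0.81 (0.00176 and 0.000341), and LUC7L2, a protein of the U1 particle, rose by 0.85 and 0.68 (0.0021 and 0.00419). U2AF1 has a near-identical copy and LUC7L2 shares 22.9% of its exon bases with a gene on the same strand, so the counts of both are uncertain.

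As a description over the 6 libraries, the gene whose log2 level followed each SR gene most closely, among 10743 genes, was IER3IP1 for SRSF1 (Pearson r of 0.999), ODF2L for SRSF2 (0.998) and YEATS4 for SRSF3 (0.993). LASP1 was nearest to SRSF4 (0.983), PTBP3 to SRSF5 (0.989), ZCCHC10 to SRSF6 (0.991) and DCTN3 to SRSF7 (0.999). WLS was nearest to SRSF9 (0.998), NANOS1 to SRSF10 (0.997) and CEP85L to SRSF11 (0.993). These values rest on 6 points from 3 groups that share their depth and normalisation, and a best match among so many genes is high by construction. None of the 10 nearest genes was itself an SR gene.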

How the data were processed

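Polyadenylated RNA of 6 TCam-2 libraries was sequenced with a stranded mRNA kit, per the labels' protocols. The deposited gene table holds a normalised signal per gene, made by the authors: 100% of 145320 nonzero values were whole reads divided by 1 size factor per library (tolerance 0.01 reads). The deposited transcript table holds TPM from salmon, which keeps no depth. The submitters' processing notes name Trim Galore 0.6.10, STAR 2.7.11a, DESeq2, Salmon 1.10.2 and GRCh38; the read counter, its use of strand and the annotation release are not given in the sources used here. The number of columns of no sample was 0.

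Gene values were divided by 23.9, so that the mean column total is that of CPM, which the plan had assumed. The 14292 genes that reached 1 on this scale in 2 or more libraries were tested as log2(value + 1) with limma 3.58.1 (R 4.3.3), in 1 fit of 6 libraries with an intensity trend, two-sided, with Benjamini-Hochberg adjustment. Such folds understate changes of low genes. Transcripts (44693) were filtered and tested in the same way on TPM. The ratio of non-coding to coding TPM was tested in 5580 protein-coding genes with at least 5 TPM in every library. Each class also had to reach 1 TPM in at least 2 libraries. Transcripts were matched by identifier to GENCODE 29, which covered 80.0% of transcripts and 94.7% to 95.1% of TPM per library; the rest were left out of gene sums and shares. Sequences and coordinates are from GENCODE 29 (GRCh38).

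The alternatives were edgeR 4.0.16 and DESeq2 1.42.0 on the recovered reads, summed TPM, other pseudocounts, filters and scalings, fits of 2 groups, a replicate block and leaving out each library. Scripts were tested on simulated data. The text names all 10 SR genes, their most abundant coding and non-coding transcripts, transcripts called against both controls, the nearest gene by correlation, and up to 4 genes per list called against both controls. The members and lists were chosen with earlier results of these data known. The limit of 3 reads for a count of 0 covers counting error only.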

Additional observations from a re-analysis of the deposited data

How the results depend on the processing

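With 2 libraries per group, the calls on SR genes and transcripts depend on the settings, and single TPM values have no counting depth behind them. Of the single log2 changes under settings other than leaving out a library, 830 kept their direction and side of the threshold, 41 lost and 18 gained a call and 35 changed sign. With 1 library left out these were 644, 48, 18 and 46. No sign change with a library left out was in a gene-level change of RBMXL3 against a control. The cause was not tested for any of them.

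With no filter on low values the gene table gave 950, 2327 and 0 calls for RBMXL3 against GFP, against WT and GFP against WT, with 1 and 0 SR genes in the first pair, and 0 and 0 SR transcripts. With summed TPM it gave 988, 1638 and 0, with 1 SR gene against GFP. Quantile normalization gave 6 SR genes and 2 SR transcripts against WT and 327 genes between the controls. Fits of only the groups compared gave 5 SR genes against WT, 148 genes between the controls, 0 and 2 SR transcripts against GFP and WT (the latter SRSF1-206 and SRSF4-205), and 0 and 1 SR genes in the ratio. A mean of at least 5 TPM gave 7 and 5 SR transcripts, and the share of the gene TPM gave 0 and 0. For the ratio against GFP, a pseudocount of 0.1, decay transcripts only, retained introns only and the arcsine scale each gave 0 SR genes.

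The replicate block gave 4 SR genes against GFP (SRSF1, SRSF5, SRSF6 and SRSF11), 191 genes between the controls, 0 and 0 SR transcripts and 0 SR genes in the ratio. Deviations of same-numbered libraries correlated at -0.16 (WT and GFP), 0.03 (WT and RBMXL3) and -0.09 (GFP and RBMXL3) over the gene table. The labels give no pairing, and whether same-numbered libraries shared a preparation was not tested.

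Leaving out 1 library gave 658 to 4313 genes against GFP, 1428 to 6163 against WT and 0 to 2780 between the controls, with 1 to 8, 0 to 5 and 0 to 2 SR genes. It gave 0 to 2 SR transcripts in both RBMXL3 comparisons and 0 to 1 SR genes in both ratios.

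Signs changed as follows. Summed TPM gave SRSF1 -0.061 and SRSF11 -0.013 against GFP, and SRSF1 -0.23, SRSF2 -0.063 and SRSF11 -0.29 against WT. Quantile normalization gave SRSF7 0.0067, SRSF9 0.011 and SRSF5-217 0.048 against WT, SRSF2-208 -0.0299 against GFP and SRSF4 0.018 between the controls. On the arcsine scale of the share, the differences were SRSF2-202 -0.014, SRSF2-208 -0.0054, SRSF5-217 -0.055 and SRSF6-202 -0.045 against GFP. Against WT they were SRSF1-205 0.059, SRSF3-208 -0.0078, SRSF3-206 -0.0104 and SRSF6-201 -0.12, and between the controls SRSF4-205 0.017, SRSF9-201 -0.0078 and SRSF11-203 0.029. With retained introns only, the ratio changed by SRSF1 0.67, SRSF5 -0.063 and SRSF10 0.71 against GFP, SRSF1 0.68, SRSF2 -1.001, SRSF5 -0.34 and SRSF10 0.33 against WT, and SRSF1 0.0039, SRSF5 -0.27 and SRSF10 -0.38 between the controls. With decay transcripts only it changed by SRSF2 0.37 against GFP, SRSF3 -0.28 and SRSF11 0.31 against WT, and SRSF11 0.18 between the controls.

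Ranges with 1 library left out that cross 0 were, for genes between the controls, SRSF1 -0.36 to 0.069, SRSF2 -0.14 to 0.036, SRSF3 -0.20 to 0.28, SRSF4 -0.16 to 0.10 and SRSF10 -0.18 to 0.00024. For the ratio they were SRSF3 -0.58 to 0.0038, SRSF10 -0.45 to 0.25 and SRSF11 -0.15 to 0.26 against GFP, and SRSF2 -0.15 to 0.56, SRSF3 -0.24 to 0.33, SRSF10 -0.21 to 0.042 and SRSF11 -0.54 to 0.40 against WT. Between the controls the ratio ranges were SRSF1 -0.24 to 0.19, SRSF4 -0.999 to 1.08, SRSF5 -0.53 to 0.88, SRSF9 -0.45 to 0.10, SRSF10 -0.33 to 0.37 and SRSF11 -0.60 to 0.35. For transcripts they were SRSF2-202 -0.031 to 0.064, SRSF2-208 -0.59 to 0.64 and SRSF9-202 -0.052 to 0.26 against GFP. Against WT they were SRSF1-205 -0.12 to 0.00068, SRSF3-206 -0.22 to 0.73, SRSF4-201 -0.077 to 0.19, SRSF5-217 -0.093 to 0.065 and SRSF7-202 -0.25 to 0.028. Between the controls they were SRSF3-208 -0.085 to 0.077, SRSF4-205 -1.12 to 0.85, SRSF5-216 -0.40 to 2.82 and SRSF9-202 -0.032 to 0.28.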
